A study of Homo sapiens and Mus musculus with 12 samples.

Results

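The 7 genes described here encode the secreted components of the mucus gel. MUC2, MUC5AC, MUC5B and MUC6 are the gel-forming mucins that lie side by side on human chromosome 11. TFF1, TFF2 and TFF3 are the trefoil factors, small secreted peptides that lie side by side on chromosome 21. Members of the peak lists were chosen by position alone, as peaks with at least 1 bp in a window around each gene cluster. The windows were chr11:950-1350 kb and chr21:43680-43840 kb of hg19 for the human lists, and chr7:141580-141950 kb of mm10 for the mouse list, where only the mucins have a window. They held 7 of the 19164 peaks of the 3 lists, namely 2 of 2775 SPDEF peaks, 3 of 10670 GATA6 peaks and 2 of 5719 mouse Spdef peaks. All 5 human peaks lay in the mucin window, and the trefoil window held 0 peaks of either factor.

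The peaks come from CUT&RUN, in which an antibody directs a nuclease to chromatin and the released fragments are sequenced. HPAF-II, an established human pancreatic ductal adenocarcinoma (PDA) line, carried HA-tagged human SPDEF in all of its 8 libraries: 3 with an antibody against the HA tag, 3 against GATA6, 1 IgG control and 1 against H3K4me3. FC1245, a KPC 2D mouse PDA line of C57/Bl6 background with the alleles KrasLSLG12D/+ and Trp53LSLR172H/+ and the Pdx1-Cre driver, carried HA-tagged mouse Spdef in all of its 4 libraries, 3 with the HA antibody and 1 IgG control. Each target is represented by 1 peak list of positions without heights or scores, so no value below has a replicate error, and the depth behind a peak is unknown. Cells without the tagged factor are not among the samples, each species is represented by 1 line, and the level of the tagged protein relative to native SPDEF is not given in the labels. IgG and H3K4me3 peaks are not analysed here, and the counts below therefore have no control value of their own.

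As background, gel-forming mucins are very large secreted glycoproteins with long, heavily O-glycosylated repeat regions, and they join end to end through disulfide bonds to give mucus its viscosity. MUC2 is the main mucin of intestinal goblet cells, MUC5AC and MUC6 are the surface and gland mucins of the stomach, and MUC5B is the main mucin of airway and salivary glands. Trefoil factors are secreted together with mucins and protect and help restore the epithelial surface: TFF1 is made with MUC5AC in gastric surface cells, TFF2 with MUC6 in gastric glands, and TFF3 with MUC2 in goblet cells. SPDEF is an ETS-family transcription factor that drives maturation of goblet and other mucus-secreting cells. GATA6 is a zinc-finger factor of endoderm whose expression marks classical PDA. Classical PDA cells often make MUC5AC and TFF1.

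Of the 7 genes, 0 held an SPDEF peak and 0 held a GATA6 peak anywhere between their edges. The mucin gene bodies cover 169 kb of their window and the trefoil gene bodies 14 kb of theirs. All peaks of the mucin window were therefore intergenic with respect to the 4 mucins. A stretch of gene length without a peak is the usual case in both lists. Of tiles of 160 kb over the chromosomes tested, each longer than any of the 7 genes, 90.4% held no SPDEF peak and 71.7% no GATA6 peak. The share for stretches of each gene's own length was not computed. The empty gene bodies therefore do not show that peaks avoid these genes. In order along the chromosome, the mucins are MUC6 (1013-1037 kb), MUC2 (1075-1111 kb), MUC5AC (1152-1222 kb) and MUC5B (1244-1283 kb). These edges are known to the nearest kb, and distances from genes are given to the same precision. "Below" and "above" mean toward lower and higher chromosome positions.

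The 38 kb between MUC6 and MUC2 held both SPDEF peaks and 2 of the 3 GATA6 peaks, which together fit within 10 kb. The first SPDEF peak, at chr11:1054115-1054451 (hg19, 337 bp), lay 17 kb above MUC6 and 21 kb below MUC2. The second, at chr11:1061317-1061630 (314 bp), lay 24 kb above MUC6 and 13 kb below MUC2. A gap of 6.87 kb separated them. Both were somewhat wider than the typical SPDEF peak, with 65.7% and 61.6% of the list narrower, against a list median of 268 bp.

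The GATA6 peaks of this cluster were comparatively narrow. The first, at chr11:1061154-1061440 (287 bp), was wider than 38.8% of the GATA6 list, whose median was 346 bp. The next, at chr11:1064039-1064141, was only 103 bp long and wider than 3.10% of the list. It lay 2.60 kb above the first and 11 kb below MUC2, which made it the GATA6 peak nearest to that gene. The third GATA6 peak, at chr11:1144893-1145102 (210 bp, wider than 16.6% of the list), stood apart from the cluster. It fell in the 41 kb between MUC2 and MUC5AC, 34 kb above MUC2 and 7 kb below MUC5AC, and 80.8 kb from the GATA6 peak before it. No SPDEF peak accompanied it, the nearest being 83262 bp away.

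**Figure D1:**
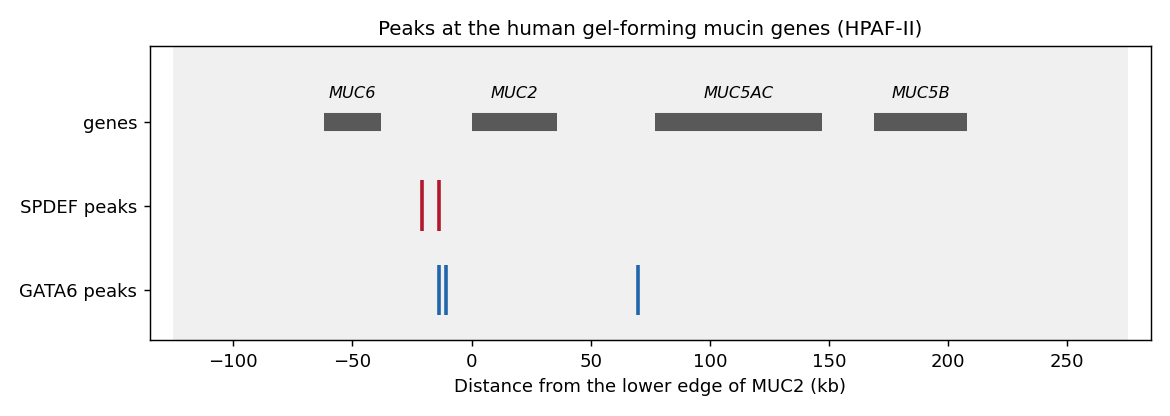
Peaks of the SPDEF (red) and GATA6 (blue) lists at the 4 gel-forming mucin genes, by distance in kb from the lower edge of MUC2. Dark bars are gene bodies, vertical lines are peak midpoints and the grey field is the 400 kb window. 4 of the 5 peaks fall between MUC6 and MUC2, 1 GATA6 peak falls just below MUC5AC, and none falls in a gene body. Empty gene bodies do not show that peaks avoid these genes.

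At 1 place of the mucin window the lists met. The second SPDEF peak and the first GATA6 peak shared 124 bp, or 39.5% of the SPDEF peak and 43.2% of the GATA6 peak, and their midpoints were 176 bp apart. The other SPDEF peak had no GATA6 peak within 6702 bp. So 1 of 2 SPDEF peaks overlapped a GATA6 peak by at least 1 bp (exact 95% Clopper-Pearson interval 1.26 to 98.7%), beside 64.7% of the whole SPDEF list. Of the 3 GATA6 peaks, 1 overlapped an SPDEF peak, beside 16.1% of the whole GATA6 list. With so few peaks, neither share can be told from that of its list. When at least 50% of both peaks had to be covered, the overlap was not counted and 0 of 2 remained.

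Around the cluster the lists were empty over long distances, as they are over most of the chromosomes tested. No SPDEF peak lay below the first one on chromosome 11, which left 1054 kb from the end of the short arm without a peak. The next SPDEF peak above the second lay at chr11:1595100-1595580, 245 kb past the window. The GATA6 list had no peak for 619 kb below MUC6, where the next was chr11:394266-394496, and none for 569 kb above MUC5B, where the next was chr11:1852255-1852449. Stretches without SPDEF peaks of at least 1054 kb make up 84.2% of the chromosomes tested, and those of at least 533 kb, the gap above the second peak, 92.3%. For GATA6, the peak-free stretches here were 667 kb and 707 kb, and stretches at least that long make up 63.4% and 61.4%. In the whole chromosome band 11p15.5, of which the window is 14.3%, 2 of 3 SPDEF peaks and 3 of 6 GATA6 peaks belonged to the mucin window. With so few peaks in the band, these shares do not show that peaks concentrate at the mucins.

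The counts were set against the rate of each list over chromosomes 1 to 22 and X. In the mucin window 2 SPDEF peaks stood against 0.365 expected from its length, a ratio of 5.48 (exact 95% Poisson interval 0.664 to 19.8), and 3 GATA6 peaks against 1.40 expected, a ratio of 2.14 (0.440 to 6.24). Both intervals include 1, so with all peaks of the lists neither count differed from the rate of its list beyond counting error. With only the wider 50% of each list, both SPDEF peaks were kept and the SPDEF ratio was 11 (1.33 to 39.6). None of the 3 GATA6 peaks was kept, and the GATA6 ratio was 0. The SPDEF interval leaves 1 out, but it rests on 2 peaks and treats peaks as independent. Shares of tiles were not computed for the wider 50%, so this ratio does not show a surplus by itself. Of 7578 tiles of 400 kb laid end to end over the same chromosomes, 7.94% held at least 2 SPDEF peaks and 20.1% at least 3 GATA6 peaks. Tiles with at least 2 SPDEF peaks numbered 602, and 438 of these (72.8%) also held at least 3 GATA6 peaks, as the mucin window did. Most tiles were emptier than the mucin window for both factors. Tiles as full as it for both factors numbered 438 of 7578, so such counts were not particular to the mucins. On chromosome 11 alone, which carries more peaks per Mb than the genome, 12.8% and 24.9% of tiles reached those counts.

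The 4 mucins differed in how close the peaks came. For MUC6, the nearest SPDEF peak was 17 kb away and the nearest GATA6 peak 24 kb. For MUC2, these distances were 13 kb and 11 kb. Placed at every possible position on the chromosomes, a stretch as long as MUC6 lies that near to an SPDEF peak in 4.01% of cases and to a GATA6 peak in 15.9%, and a stretch as long as MUC2 in 4.29% and 13.3%. Those positions cover whole chromosomes and are not limited to genes. Chromosome 11 carries more peaks per Mb than the tested chromosomes together (SPDEF 1.25 against 0.912, GATA6 4.12 against 3.51). Shares of positions on chromosome 11 alone were not computed. By distance, MUC6 and MUC2 were the members nearest to SPDEF peaks. The peaks between them cannot be assigned to one gene or the other from position. RefSeq's GRCh38.p14 annotation also lists LOC124902605, a protein-coding entry, and the long noncoding RNAs LINC02688 and LOC107987157 between MUC6 and MUC2. The peaks were not assigned to these either.

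MUC5AC had its nearest GATA6 peak at 7 kb, the shortest distance of any member to either list. Its nearest SPDEF peak was at 90 kb, with MUC2 between. A stretch of its length is as near to a GATA6 peak in 17.8% of positions and to an SPDEF peak in 14.0%. MUC5B was the most remote mucin, 99 kb from a GATA6 peak and 182 kb from an SPDEF peak, distances that 36.3% and 20.1% of positions share. The 22 kb between MUC5AC and MUC5B and the 67 kb from MUC5B to the end of the window held 0 peaks of either list.

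The span used for MUC5AC needs a caution. It is 70 kb in the hg19 coordinates used here, against 43.2 kb for the same gene in RefSeq's GRCh38.p14 annotation, whereas the spans of the other 6 genes differ between the sources by less than 1 kb (MUC2 36 against 35.6 kb, MUC5B 39 against 39.1 kb, MUC6 24 against 23.9 kb). Whether reads could be placed throughout the hg19 span, or within the repeats of any of the 4 mucins, was not tested, so an empty gene body there is no measure of absent binding.

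**Figure D2:**
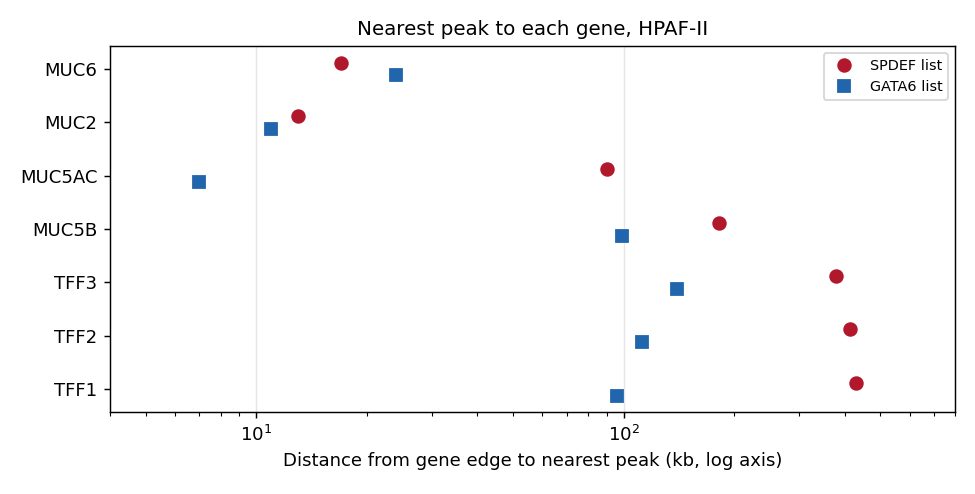
Distance in kb (log axis) from the nearer edge of each gene to the nearest SPDEF peak (red circles) and GATA6 peak (blue squares) in HPAF-II, 1 value per gene and list with no replicate. MUC6 and MUC2 lie within 24 kb of both lists, MUC5AC within 7 kb of GATA6 only, and the 3 trefoil genes 96 kb or more from both.

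The start of MUC2 is shown because the peak cluster lies on its lower side, the side of its promoter. This position does not assign the cluster to MUC2, since the cluster also lies beside MUC6. RefSeq's promoter table held 1 of the 7 members, MUC2. The 250 bases before its start (GRCh38.p14, plus strand, chr11:1074624-1074873) read as follows, with capitals marking a match to GATAA, the core letters of GATA sites, and a match to CAGGAT, an ETS-type core, on the opposite strand, where it reads as its reverse complement.

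MUC2 promoter: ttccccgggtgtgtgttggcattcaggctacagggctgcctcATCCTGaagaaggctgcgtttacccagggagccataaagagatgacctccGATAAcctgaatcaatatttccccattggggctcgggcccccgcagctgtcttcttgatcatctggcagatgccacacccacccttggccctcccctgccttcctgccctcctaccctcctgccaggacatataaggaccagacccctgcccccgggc

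The GATAA match begins 158 bases before the start and the CAGGAT match 208 bases before it. On either strand, GATAA occurs in 20.4% and CAGGAT in 11.7% of 35114 promoter stretches of the same length. The longer AGATAA, which contains GATAA and is present in 9.17% of these stretches, did not occur, nor did CCGGAT (5.85%). The shorter ETS core GGAA, present in 92.7%, occurred 3 times, and GGAT, which CAGGAT and CCGGAT contain and which is present in 70.7%, occurred 1 time as part of the CAGGAT match. These letters are a description of the stretch and not binding sites. No peak of either list lay closer to MUC2 than 11 kb, so the promoter itself was outside both lists. The peaks' own sequences are not shown, since no hg19 or mm10 genome was used here.

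The mouse list was examined in the mouse mucin window. Of the mouse Spdef peaks, 2 lay there, at chr7:141817594-141818125 (mm10, 532 bp, wider than 60.4% of the mouse list) and chr7:141836069-141836707 (639 bp, wider than 69.0%). The list median was 437 bp. Both peaks fell in the upper part of the window, 238 kb and 256 kb from its lower edge, with 17.9 kb between them. Against 0.803 expected from the window's length the ratio was 2.49 (exact 95% Poisson interval 0.302 to 9.0), and 18.9% of 7109 tiles of 370 kb over mouse chromosomes 1 to 19 and X held at least 2. On mouse chromosome 7 alone the share was 14.2%. The interval includes 1. The nearest mouse peaks outside lay 103 kb below the window, at chr7:141476766-141476811 (46 bp), and 1119 kb above it. Positions of the single mouse mucins in mm10 were not used, so the mouse peaks were not placed between genes, and human and mouse positions were not aligned. Both SPDEF lists thus held 2 peaks in the mucin window of their species. At least 2 were held by 7.94% of human 400 kb tiles and 18.9% of mouse 370 kb tiles. The equal counts do not show shared sites.

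The trefoil genes lie in a 55 kb cluster, in the order TFF3 (43732-43736 kb), TFF2 (43766-43771 kb) and TFF1 (43782-43787 kb). Their 160 kb window was empty in both lists. At the genome-wide rates, 0.146 SPDEF peaks and 0.562 GATA6 peaks were expected in it. Counting error alone allows a ratio of up to 25.3 for SPDEF and 6.56 for GATA6, and a limit of 3 counts corresponds to 18.8 peaks per Mb, far above the rate of either list (0.912 and 3.51 per Mb). An empty window of this size is also the usual case. Of 18961 tiles of 160 kb, 9.62% held an SPDEF peak and 28.3% a GATA6 peak, and 70.2% held neither. A lower occupancy than elsewhere could not be detected in so short a window.

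SPDEF peaks were far from all 3 trefoil genes. The nearest, at chr21:43352937-43353159 (223 bp), was 379 kb from TFF3, 413 kb from TFF2 and 429 kb from TFF1. On the other side the next was at chr21:45188207-45188487 (281 bp), 1401 kb above TFF1. The 1835 kb between them held no SPDEF peak, and 74.5% of the chromosomes tested lies in stretches without SPDEF peaks at least that long. Chromosome 21 held 20 SPDEF peaks in all, or 0.416 per Mb, and 8 of them lay in the band of the trefoil genes, 21q22.3. That band is 5530 kb long, and the trefoil window is only 2.89% of it.

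GATA6 peaks came closer, on both sides of the cluster but outside its window. Below, a peak at chr21:43591437-43591622 (186 bp, wider than 9.46% of the list) was 140 kb from TFF3. Above, 4 GATA6 peaks lay within 33.4 kb of each other. The first of these, at chr21:43882985-43883331 (347 bp), was 96 kb from TFF1 and 112 kb from TFF2. The second, at chr21:43888534-43889591, was 1058 bp wide, wider than 92.2% of the list, and 102 kb from TFF1. The other two, at chr21:43889822-43890069 (248 bp) and chr21:43916083-43916345 (263 bp), were 103 kb and 129 kb away. None of these 5 GATA6 peaks overlapped an SPDEF peak, beside 16.1% of the whole GATA6 list that did. With 5 peaks, this cannot be told from the share of the list. A stretch as long as TFF1 lies as near to a GATA6 peak in 32.4% of positions, one as long as TFF2 in 35.6% and one as long as TFF3 in 40.4%, so these distances were ordinary for the list. In the order of RefSeq's GRCh38.p14 annotation TMPRSS3, UBASH3A and RSPH1 follow above TFF1, and the peaks were not assigned to any of them. With the window widened by 100 kb on each side, these 5 peaks entered it and the SPDEF count was still 0. The GATA6 ratio was then 3.95 (1.28 to 9.23, which leaves 1 out). That interval treats peaks as independent, whereas 4 of the 5 lie within 33.4 kb of each other. No share of tiles was computed for the widened window, so the ratio does not show a surplus around the trefoil genes.

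**Figure D3:**
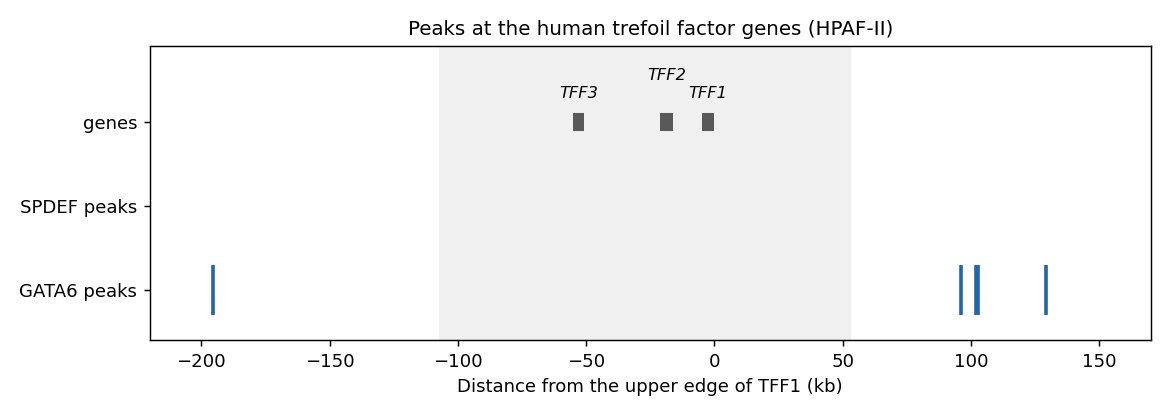
Peaks of the SPDEF and GATA6 (blue) lists at the 3 trefoil factor genes, by distance in kb from the upper edge of TFF1. Dark bars are gene bodies, vertical lines are peak midpoints and the grey field is the 160 kb window, which is empty in both lists. The 5 GATA6 peaks lie outside it, the nearest 96 kb above TFF1, and the SPDEF row is empty over the whole stretch drawn.

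The mucin and trefoil clusters thus differed in these lists by 5 peaks against 0, in windows of 400 kb and 160 kb. At the rates of the lists the trefoil window was expected to hold less than 1 peak of each, and for each list the Poisson intervals of the ratios in the 2 windows overlap; the difference itself was not tested. For the SPDEF list, the order of the genes by distance was MUC2, MUC6, MUC5AC, MUC5B, TFF3, TFF2 and TFF1. For the GATA6 list it was MUC5AC, MUC2, MUC6, TFF1, MUC5B, TFF2 and TFF3. In the SPDEF list MUC2, MUC5AC and MUC5B share their nearest peak, as do the 3 trefoil genes. In the GATA6 list MUC5AC and MUC5B share theirs, as do TFF1 and TFF2. Distances to a shared peak are not independent values.

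**Figure D4:**
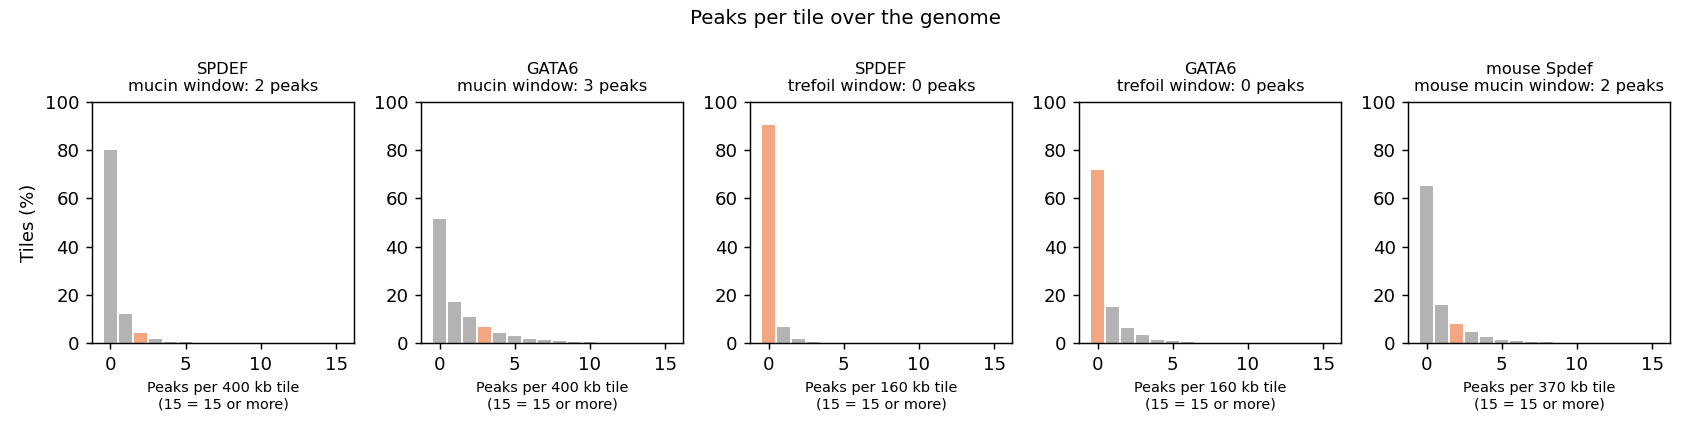
Share of tiles (%) by the number of peaks they hold, for tiles of each window's own length over the tested chromosomes of hg19 or mm10. The orange bar is the number found in the window itself: 2 SPDEF and 3 GATA6 peaks for the human mucins, 0 and 0 for the trefoil factors, and 2 for the mouse mucins. In every panel most tiles are empty.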

How the data were processed

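The data are 3 peak lists, 1 per target, giving chromosome, start and end. The authors deposited no score, height or p-value with them. Tools listed in the submitters' processing notes are MACS2 2.2.7.1, Bowtie2 2.4.4, deepTools and SAMtools 1.14, with mm10 and hg19 as builds. Roles, control, threshold, excluded regions and pooling of replicates are not given in the sources used here. No peak ended past a chromosome of its build. Positions are printed counting from 1.

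Windows and human gene spans came with the choice of genes, rounded to kb, and no hg19 annotation was used. All 7 symbols matched RefSeq's GRCh38.p14 table, used for lengths and gene order. The genes, windows and lists were chosen with earlier results of these data known. Every peak in a window is named, with the nearest outside. Expected counts used chromosomes 1 to 22 and X (mouse 1 to 19 and X), with lengths and bands from circlize 0.4.16 in R 4.3.3. Intervals are 95% and cover counting error only. No test across samples was possible. Counting was tested on simulated data. Python 3.11.15, pandas 2.3.3, scipy 1.17.1 and matplotlib 3.10.9 were used.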

Additional observations from a re-analysis of the deposited data

How the results depend on the processing

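No paired analysis was possible because the 3 libraries of a target are represented by a single list. Of 43 alternative values, 37 stayed within the interval of the main value. This tally does not measure robustness, since the intervals are wide and the trefoil shares of tiles could not move. The GATA6 ratio of the trefoil window, for example, went from 0 to 3.95 with the window widened by 100 kb on each side. It still counted as within its interval of 0 to 6.56. With the wider 50% of each list the GATA6 ratio of the mucin window was 0, since all 3 peaks are narrower than the list median. With at least 50% of both peaks covered, 0 of 2 SPDEF peaks overlapped. Tiles of the own chromosome reached the window's count in 12.8% (SPDEF), 24.9% (GATA6) and 14.2% (mouse Spdef). Without tiles on centromere, variable and stalk bands, an alternative chosen after seeing the data, the GATA6 share was 21.5%. The SPDEF ratio of the mucin window ranged from 3.66 (window widened by 100 kb on each side) to 11 (wider 50% of the list). The interval of the latter, 1.33 to 39.6, leaves 1 out, but it rests on 2 peaks and treats peaks as independent. The SPDEF ratio of the trefoil window was 0 throughout. The share of tiles with as many peaks or more is 100% by definition for an empty window. The lists hold no scores, so no stricter peak threshold could be set, and depth is unknown.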
